A study of Mus musculus with 2 samples.

Results

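The endoderm lineages were followed through 10 marker genes in 2 RNA samples of R1, a line of mouse embryonic stem (ES) cells. These were Sox17, Sox7, Gata4, Gata6, Pdgfra, Hnf4a, Afp, Ttr, Dab2 and Cubn, and the Foxa genes were left aside. The members were all probes that the array files name for 1 of these genes, which gave 21 probes of 10 genes among 41174 gene probes and 19504 named genes. The first sample was embryoid body cells, floating aggregates, at day 6 of direct neural differentiation, which the labels describe as neural precursors. Whether feeders, serum or leukaemia inhibitory factor (LIF) were present at day 6 is not stated in the labels. The second was undifferentiated ES cells (day 0), cultured on growth-arrested fibroblast feeders in medium with 15% fetal bovine serum and LIF at 1000 U/ml. Each group was 1 Agilent expression array, read in 1 colour at its own position on a shared slide, so group and position on the slide cannot be told apart. Differences therefore have no replicate check, carry no p-value and describe these 2 RNA samples of 1 cell line.

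The primitive endoderm is the epithelium that forms beside the pluripotent epiblast in the blastocyst. It gives rise to the parietal endoderm, which lays down a thick basement membrane, and to the visceral endoderm, which takes up and secretes nutrients. The definitive endoderm arises later, at gastrulation, and builds the gut and its glands. GATA and SoxF transcription factors start the primitive endoderm programme, Pdgfra marks its precursors, Hnf4a drives the visceral endoderm genes Afp and Ttr, and Dab2 and Cubn serve protein uptake. None of these genes is limited to endoderm. Pdgfra is also a gene of fibroblasts and oligodendrocyte progenitors, Sox17 and Sox7 are also genes of endothelium, Gata4 and Gata6 of heart, and Ttr of choroid plexus.

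No common direction was seen among the endoderm markers. Sox17 and Pdgfra stood 2-fold or more higher on day 6, Sox7 2-fold or more lower, and Gata6, Dab2 and Cubn lay within 2-fold. Gata4, and Pdgfra by most of its spots, were well above background in day 6 cells alone. Afp, Ttr and Hnf4a were not well above background in either sample. The labelled states themselves differed widely. Of 6 pluripotency genes, 6 were at least 2-fold lower on day 6 with a median log2 difference of -6.33, and of 6 neural progenitor genes, 5 were 2-fold or more higher (median log2 difference 5.28, or 2.37 over every probe and 2.49 over genes measured on both arrays).

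Each probe is a 60-base oligonucleotide, and several probes of a gene can report differently. For Sox17, Sox7, Gata4, Pdgfra and Dab2, the first 30 bases of each probe are shown as the array files give them. Dim partners from the same gene are included for contrast. An Hnf4a probe that was not well above background on either array is also shown. Capitals mark the hexamer AATAAA, the canonical polyadenylation signal.
Sox17 A_52_P279368: ctcactgacttattccatttcttgaaagtg
Sox17 A_51_P273667: cagtatctgccctttgtgtataagcccgag
Sox17 A_52_P365096: ggaacctccagtaagccagatttggtctct
Sox17 A_52_P1180325: attgcatctgaaatcacaacattactgggt
Sox7 A_51_P476018: agtcccggatggatattaataatctcgtga
Sox7 A_52_P644005: cagaaagagatattgtcacagagaaaaaga
Gata4 A_51_P492355: gaagcccaccttggctgcaagcacagcaca
Gata4 A_52_P4201: ctagaaaatacagactgtttgcaaAATAAA
Pdgfra A_51_P345649: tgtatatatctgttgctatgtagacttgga
Pdgfra A_52_P264283: aatgagaagattgtgcagctgaattcgtcc
Hnf4a A_52_P683991: tattacagtacagggaacatggAATAAAgg
Dab2 A_51_P157994: caaggcattattcaaagctAATAAAacaat
Dab2 A_52_P17534: aatggaagtgaggccctaatgacccttgat

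The hexamer was searched over the full probes on both strands, and 3 of the 21 endoderm probes held it, all as written. They belonged to Gata4, Hnf4a and Dab2. Of all 41174 gene probes, 4.78% held it as written and 8.80% on either strand. The longest run that an endoderm probe shared with a probe of another gene was 17 bases, in the Sox7 probe A_52_P644005. Probe positions are in mouse build mm7 (NCBI build 35), where Sox17, Gata4 and Cubn lie on the minus strand and Sox7, Pdgfra, Hnf4a, Afp and Dab2 on the plus strand. No annotation of that build was used here, so exon, intron and untranslated positions are not given.

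A probe was counted as measured where most of its spots were marked well above background by the scanner software. Of the 21 probes, 6 met this on both arrays, 2 on day 6 only, 0 on day 0 only and 13 on neither. The lowest signal well above background stood at 85.2 intensity units on the day 6 array, against 102 on the day 0 array, and negative control spots had medians of 18.3 on day 6 and 22.4 on day 0. The measured endoderm signals lay between 113 and 1845 units on day 6 and between 183 and 1626 units on day 0, apart from the values of Gata4 and Pdgfra on day 0. Intensities are given as processed by the scanner software, and differences are log2 values after subtraction of the array's 75th percentile, which was 4371 units on day 6 and 3746 on day 0.

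**Figure D1:**
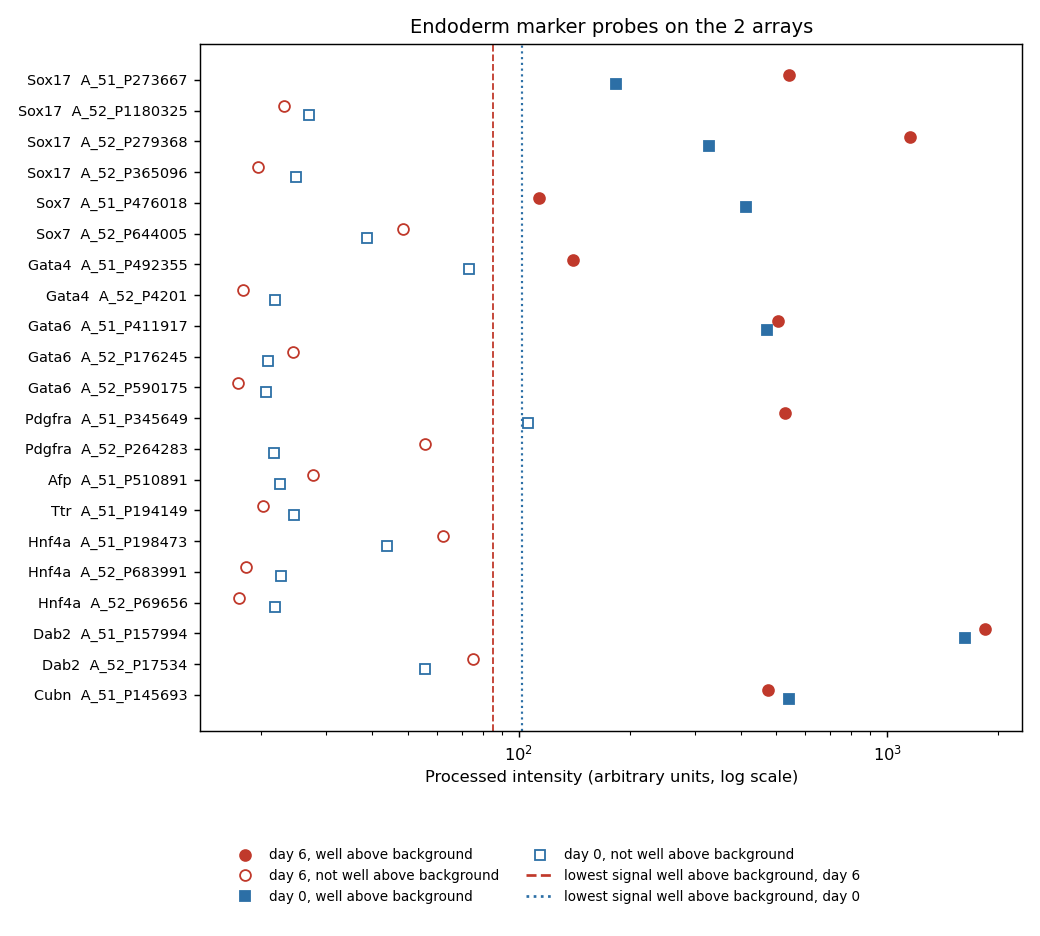
Processed intensity (arbitrary units, log scale) of each of the 21 endoderm probes on the day 6 array (red circles, upper of each pair) and the day 0 array (blue squares), filled where well above background, with each array's lowest signal well above background as a vertical line. Only 8 probes have a filled mark, and those of Sox17, Sox7 and Pdgfra are the widely separated pairs.

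Several probes were present for 7 of the genes, and in 6 of these the probe nearest the 3′ end was measured, the exception being Hnf4a. Of their 10 other probes on the gene's strand, 1 was measured, the second one of Sox17. The measured probe of Pdgfra lay 34275 bases of genome 3′ of its dim partner, that of Dab2 14843 bases and that of Sox7 6223 bases. Across 8304 genes with several probes on 1 strand, 84.7% of the most 3′ probes and 77.4% of the others were measured. The measured endoderm probes had a median GC content of 39.2% and the others 41.7%, with 80.0% in the Gata6 probe A_52_P590175. How far probe position or composition bears on the dim probes was not tested.

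Of the 7 endoderm genes measured on at least 1 array, 2 (Sox17 and Pdgfra) stood 2-fold or more higher on day 6, beside 17.8% of the 14966 measured genes of the array. In the other direction, 1 (Sox7) stood 2-fold or more lower, beside 20.1%. With 7 genes, these counts do not set the endoderm genes apart from all genes. The median log2 difference was -0.04 over the 7 endoderm genes and -0.09 over all measured genes. By probe, 3 of 8 measured endoderm probes were higher, against 17.5% of 28378 probes, and 1 was lower, against 18.1%. The 3 higher probes were the measured Sox17 pair and that of Pdgfra, which was well above background on day 6 only. Without scaling of the arrays to each other, 3281 of all genes stood 2-fold or more higher and 2396 lower, against 2661 and 3002 with it, and the endoderm counts were still 2 and 1.

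The SoxF factors Sox17 and Sox7 went in opposite directions. Sox17, which specifies endoderm and the endothelium of arteries, was measured by a pair of probes 387 bases apart. The probe at chr1:4487014-4487073 had 1153 intensity units in day 6 cells and 329 in day 0 cells. The log2 difference was 1.58 ± 0.23, where the error is the SD that the scanner software gives for the pair of spots. The probe at chr1:4487401-4487460 had 542 units in day 6 cells and 183 in day 0 cells, with a log2 difference of 1.34 ± 0.29, or 2.53-fold. Both probes were brighter on day 6, and their differences lay within the software error of each other. With no background subtraction the second probe stood at 0.92, under 2-fold.

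The remaining Sox17 probes were not well above background in either sample. One of them, at chr1:4490742-4490801, lay 3728 bases towards the 5′ end. It had 19.6 units on day 6 and 24.9 on day 0. The other, for the cDNA clone AK051370, lay at chr1:4494263-4494322 on the opposite strand and had 23.1 units on day 6 and 27 on day 0. Both pairs of values were near the level of the negative controls.

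Sox7, a SoxF gene of parietal endoderm and early blood vessels, had 113 intensity units in day 6 cells and 413 in day 0 cells by its probe at chr14:58814461-58814520. The log2 difference was -2.09 ± 0.33, a 4.26-fold lower signal on day 6. The day 6 value stood close above the lowest signal well above background. The log2 difference was -1.49 with normexp and -1.36 with no background subtraction. The second probe, for the clone AK009704 at chr14:58808238-58808297, had 48.5 units on day 6 and 38.7 on day 0 and was not well above background on either array.

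The SoxF relative Sox18, a gene of endothelium, had a log2 difference of 0.18. Of 11 measured endothelial genes, 0 stood 2-fold or more higher on day 6 and 6 stood lower, with a median log2 difference of -1.33 (-2.51 over every probe) and a summed intensity of 11788 on day 6 and 22940 on day 0. The receptor gene Tek, measured in day 0 cells alone, was at least 12.3-fold lower on day 6. The adhesion gene Pecam1 was likewise lower, by at least 9.59-fold, while Cdh5 was 1.45-fold higher and Tie1 was not measured in either sample. The part of endothelial cells in the Sox17 and Sox7 values was not tested.

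Of the GATA factors, Gata6 lay within 2-fold and Gata4 had only a lower bound. Gata6, which starts primitive endoderm formation and acts later in heart and gut, had 504 intensity units in day 6 cells and 473 in day 0 cells by its most 3′ probe on chromosome 18. The log2 difference was -0.13 ± 0.22, within the software error of 0, and 0.092 without scaling. The other Gata6 probes had 24.4 and 17.3 units on day 6, against 20.9 and 20.6 units on day 0, and neither was well above background.

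Gata4, which acts with Gata6 in endoderm and heart, had 141 intensity units in day 6 cells, where it was well above background, and 73.2 in day 0 cells, where it was not. Only a bound is known, at 1.18-fold or more higher on day 6. It rests on 1 spot on each array and has no software error, so whether it exceeds that error is not known. The coordinates of this probe, chr14:58062775-58062796, cover 22 of its bases. The second probe, at chr14:58063189-58063248, was printed 10 times and had 17.8 units on day 6 and 21.8 on day 0, on the level of the negative controls. Its spots were tightly grouped, with an SD of 0.061 log2 units on day 6 and 0.089 on day 0.

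The other GATA, FOG and SoxF genes included 1 past 2-fold. Of 5 measured, 0 were at least 2-fold higher and 1 was lower on day 6, and 1 was higher without scaling. The median log2 difference was 0.18, but -0.20 with no filter on dim probes. The lower one was Zfpm2 (FOG2), a cofactor of GATA4 in the heart, with 329 units on day 6 and 2085 on day 0 (log2 difference -2.89 ± 0.22). Gata3 had a log2 difference of 0.97. Gata2 differed by 0.56 by its brightest probe and by 1.04, past 2-fold, by another, and Gata1 and Gata5 were not measured in either sample. Of 10 measured cardiac mesoderm genes, 2 were at least 2-fold higher and 5 lower on day 6, with Mef2c 4.12-fold higher and Hand1 at least 13.4-fold lower. Their summed intensity was 7645 on day 6 and 14966 on day 0, Tbx5 and Hand2 were not measured, and the part of heart cells in the GATA values was not tested.

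Pdgfra, the receptor for PDGF-A that marks primitive endoderm precursors in the blastocyst, was higher in day 6 cells. Its probe at chr5:74616116-74616175 was printed 10 times on each array. On day 6 its 7 spots that were not outliers had 517 to 544 intensity units, and all of them were well above background. On day 0 its 9 such spots had 94.8 to 134 units, and 3 of them were well above background. The spots of the arrays did not overlap.

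The mean intensity of Pdgfra was 529 units on day 6 and 106 on day 0, a 4.29-fold difference (log2 2.10). Most day 0 spots were not well above background. The day 0 mean still lay just over that array's lowest signal well above background, 102 units. The fold is therefore the plain difference and not a lower bound. The SD between spots was 0.029 log2 units on day 6 and 0.15 on day 0. One further day 0 spot, which the software marked as an outlier and which is left out here, had 426 units. The fold was smaller with outlier spots kept, at log2 1.91. With other background corrections it was log2 1.48 (normexp) and 1.38 (no background subtraction), and without scaling it was larger, at 2.32. The second probe, at chr5:74581841-74581900, had 55.6 units on day 6 and 21.6 on day 0 and was not well above background on either array.

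**Figure D2:**
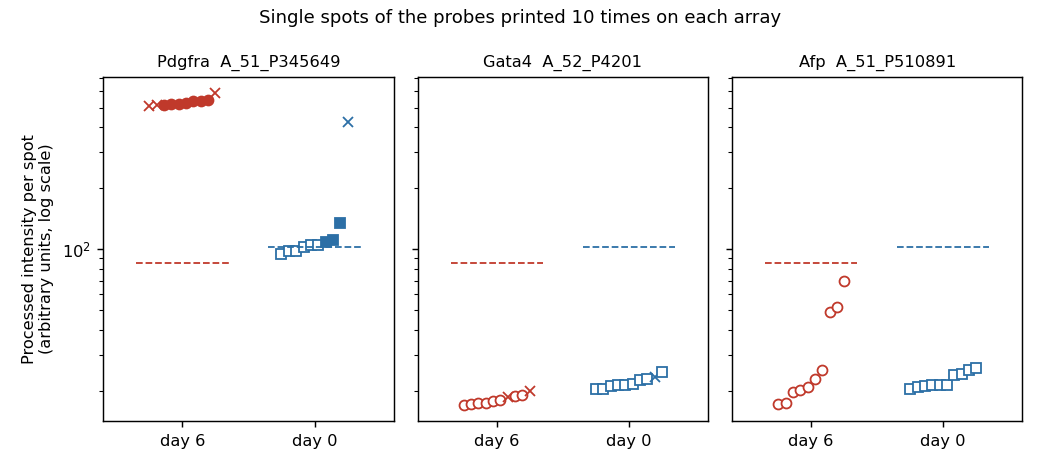
Processed intensity of single spots (arbitrary units, log scale) for the 3 endoderm probes printed 10 times, with day 6 in red on the left and day 0 in blue on the right, filled where well above background and crossed where marked as an outlier, and each array's lowest signal well above background as a dashed line. Every Pdgfra spot of day 6 lies above every spot of day 0, the highest of which is an outlier at 426 units, the Gata4 spots lie at background level, and 3 Afp spots of day 6 stand above the rest.

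The ligand genes Pdgfa, Pdgfb and Pdgfc were lower in day 6 cells. Of 6 other PDGF ligand and receptor genes, 0 were at least 2-fold higher and 3 were lower, with a median log2 difference of -1.32. Pdgfb had 92.6 units on day 6 and 1209 on day 0 and was 15.2-fold lower, and Pdgfc was 4.70-fold lower. The Pdgfb log2 difference was -3.93, but -2.90 with no background subtraction. Pdgfa, the main ligand of Pdgfra and named here after its value was seen, was 3.14-fold lower, with 19876 units on day 6 and 53430 on day 0. The second receptor gene, Pdgfrb, had a log2 difference of 0.40 ± 0.20, and the ligand gene Pdgfd one of 0.17 ± 0.35. The 3 lower ligand genes thus lay on the other side of 0 from Pdgfra.

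Markers of other cell types that carry Pdgfra differed in both directions. Of 16 feeder fibroblast genes, 1 was at least 2-fold higher and 9 were lower on day 6, with a median log2 difference of -1.27 and a summed intensity of 55718 on day 6 and 190238 on day 0. S100a4 was 159-fold lower and Lum, a matrix proteoglycan gene, 3.20-fold higher. Of 7 oligodendrocyte progenitor genes, 4 stood 2-fold or more higher and 1 was lower, with a median log2 difference of 1.41 (1.07 with members at their bound) and a summed intensity of 6748 on day 6 and 1612 on day 0. Nkx2-2 was 18.1-fold higher, Olig2 was at least 3.23-fold higher, and Cspg4 (NG2), which such progenitors carry together with Pdgfra, was 4.03-fold lower. Olig1 and Gpr17, named here after their values were seen, were measured in day 6 cells alone and had bounds under 2-fold. The part of these cell types in the Pdgfra value was not tested. In bulk RNA, fewer cells of a type and less RNA per cell cannot be told apart.

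Hnf4a, a nuclear receptor of visceral endoderm and liver, and the secreted protein genes Afp and Ttr were not well above background. The 3 Hnf4a probes had 62.4, 18.2 and 17.4 intensity units on day 6 and 44.0, 22.7 and 21.7 on day 0. The first of these, at chr2:163311219-163311278, was significantly above background by the software on both arrays but below the level counted here as measured. The most 3′ probe, at chr2:163313228-163313287, and the third probe, at chr2:163293456-163293515, were on the level of the negative controls.

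Afp (alpha-fetoprotein), a serum protein of yolk sac and fetal liver, had a mean of 27.6 intensity units on day 6 and 22.5 on day 0 over 10 spots of its probe at chr5:90479870-90479929. On day 6 its spots ranged from 17.1 to 69.9 units with an SD of 0.74 log2 units, and on day 0 from 20.4 to 25.9 units with an SD of 0.13. On day 6, 3 spots lay between 48.8 and 69.9 units, apart from the others. Of all Afp spots, 0 were well above background on either array. By the software, 7 of the 10 spots on day 6 and 2 of the 10 on day 0 were significantly above background. Ttr (transthyretin), a carrier of thyroid hormone made by visceral endoderm, liver and choroid plexus, had 20.3 units by its probe on chromosome 18 on day 6 and 24.6 on day 0. Ttr was thus on the level of the negative controls on both arrays.

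Of 8 measured choroid plexus genes, 3 were at least 2-fold higher and 2 lower on day 6, with a summed intensity of 39633 on day 6 and 36697 on day 0. Clic6 was 5.97-fold higher and Slc4a5 12.2-fold lower, and Kl was not measured in either sample. Their part in the Ttr value was not tested.

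The uptake genes Dab2 and Cubn were measured on both arrays and lay within 2-fold. Dab2, an adaptor that links receptors to clathrin coats, had 1845 intensity units in day 6 cells and 1626 in day 0 cells by its probe at chr15:6266416-6266475. The log2 difference was -0.04 ± 0.21, and 0.18 without scaling. Its second probe, at chr15:6251189-6251632, had 75 units on day 6 and 55.7 on day 0 and was not well above background on either array. A further probe that the files name D630005B22Rik, and whose accession belongs to Dab2, had 17.3 units on day 6 and 20.7 on day 0 and was not counted as a member.

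Cubn (cubilin), the uptake receptor for vitamin B12 with its carrier and for apolipoproteins, had 475 intensity units in day 6 cells and 543 in day 0 cells by its probe at chr2:13215519-13215578. The log2 difference was -0.42 ± 0.22, and -0.19 without scaling. Amn (amnionless), which brings cubilin to the cell surface, was lower on day 6, with 183 units on day 6 and 877 on day 0, a 5.59-fold difference. Lrp2 (megalin), the partner receptor, had 36236 units on day 6 and 19750 on day 0. Its brightest probe gave a log2 difference of 0.65, and its lowest probe 0.079. Of 8 measured uptake genes, 2 were at least 2-fold higher and 3 lower, with a median log2 difference of 0.065 (-0.12 with no filter on dim probes). Rab11fip2 and Myo6 were 3.94-fold and 2.13-fold higher.

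**Figure D3:**
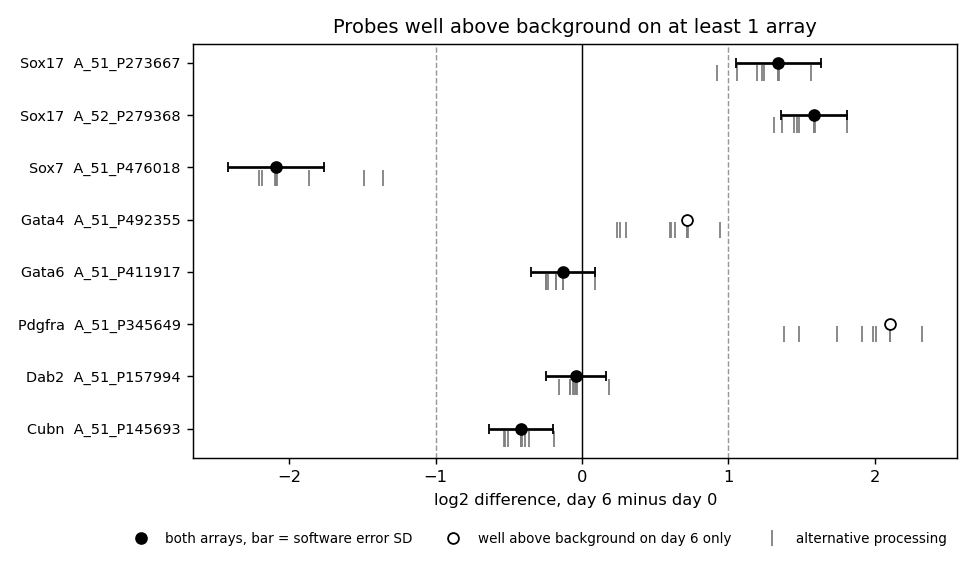
Log2 difference, day 6 minus day 0, of the 8 endoderm probes measured on at least 1 array, with the software error SD as a bar where both arrays were well above background, open circles for probes well above background on day 6 only, grey ticks for the alternative processings and dashed lines at 2-fold. Sox17 and Pdgfra lie right of 0, Sox7 lies left of it at -2.09, and Gata6, Dab2 and Cubn lie within 2-fold.

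Genes of the extraembryonic endoderm outside the 10 markers were also mixed. Of 14 genes of parietal and primitive endoderm, among them basement membrane and keratin genes, 3 were at least 2-fold higher and 7 lower on day 6. Their median log2 difference was -0.78, but -0.10 when every probe was counted, with 7 probes then higher. Plat (tissue plasminogen activator) was 10.8-fold higher, the parathyroid hormone receptor gene Pth1r 4.16-fold higher and Col4a2 2.04-fold higher, while Col4a1 differed by 0.59 in log2 by its brightest probe and by 0.041 by another. Nid1, Lamb1 and Lamc1, which encode entactin and laminin chains, were 4.47-fold, 4.46-fold and 3.10-fold lower, and Krt19 was 3.07-fold lower. Fibroblasts also make several of these matrix proteins.

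Of 16 measured visceral endoderm and yolk sac genes, 3 were at least 2-fold higher and 7 lower. Their median log2 difference was -0.78, and 0.018 when every probe was counted. Dkk1 and Cer1, secreted inhibitors of the anterior visceral endoderm, were higher on day 6, Dkk1 by 4.65 log2 units and Cer1 at least 2.86-fold, and Rbp4, a retinol carrier gene, was 7.88-fold higher. Rhox5 was 31.0-fold lower, Hhex 3.28-fold and Apoe 2.88-fold lower. Apoa1, Apoa2, Apoa4, Ihh, Fga and Alb were not measured in either sample, like Afp and Ttr.

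**Figure D4:**
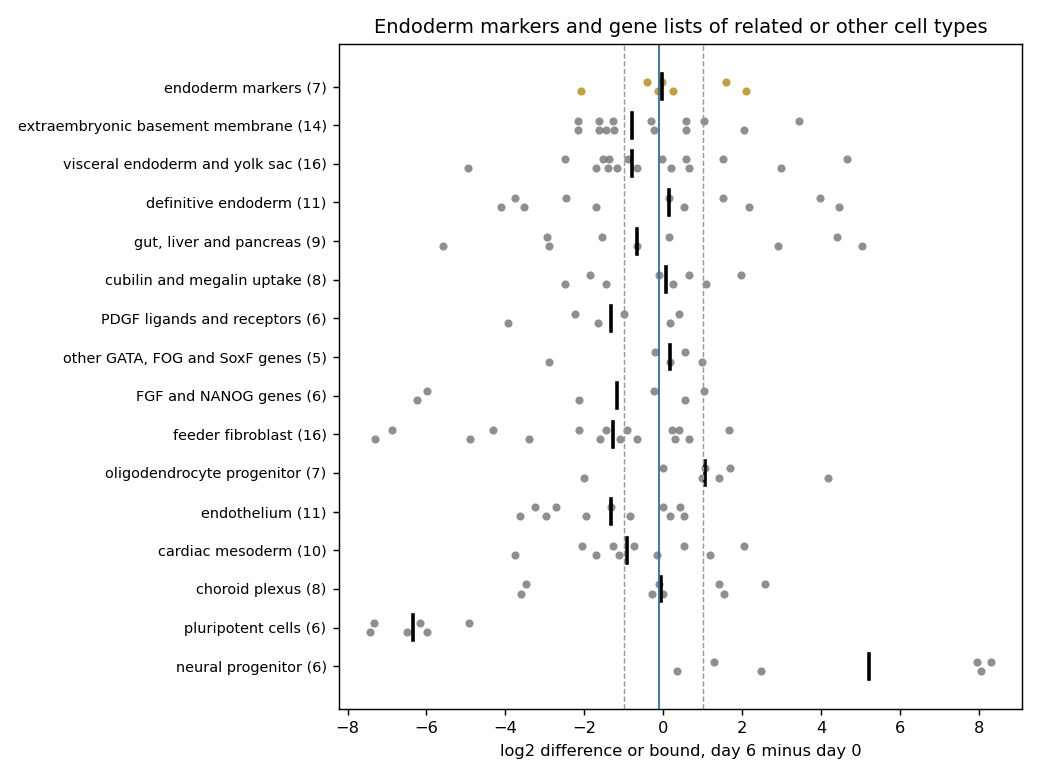
Log2 difference or bound, day 6 minus day 0, of single genes (dots) in the 7 measured endoderm markers (gold) and in 15 gene lists (grey, number of measured genes in brackets). Black bars are medians of these values, bounds included, whereas medians in the text are of differences without bounds unless stated. The blue line is the median difference of all genes, without bounds, and dashed lines mark 2-fold. The endoderm markers spread to both sides of 0, while pluripotency genes lie far left and most neural progenitor genes right.

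Among the genes that oppose or favour primitive endoderm in the inner cell mass, 1 of 6 measured was at least 2-fold higher on day 6 and 3 were lower. The higher count was 0 under median scaling, under both other background settings and where probes of a gene were averaged. The median log2 difference was -1.17, but -0.069 when every probe was counted. Nanog, which represses Gata6 in epiblast cells, was 63.5-fold lower, with 492 units on day 6 and 26750 on day 0. Gata6 lay within 2-fold on the same arrays. The FGF receptor gene Fgfr2, whose signal favours primitive endoderm, was 2.05-fold higher by its brightest probe, while its lowest probe gave a log2 difference of 0.21. Klf2 was 75.9-fold lower by its brightest probe, with a log2 difference of -0.82 by another.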

How the data were processed

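Per the labels' protocols, Trizol-extracted RNA was cleaned on columns and carried Cy3. The 014868 array design and Feature Extraction 9.5.3.1 are named per the file headers. That software took the background off the deposited intensities by spatial detrending, applied multiplicative detrending, and gave a surrogate to spots not above background. A deposited log2 table of processed values had equal distributions and a median of 8.53 in both columns, and its steps are not stated in the labels. Its differences correlated at 0.989 across probes with those of the scanner files, and it served as an alternative.

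Gene spots called outliers, 216 on day 6 and 186 on day 0, were dropped, the log2 intensities of a probe's spots were averaged and the array's 75th percentile was subtracted (Python 3.11.15; limma 3.58.1 for normexp with offset 50). A gene took its brightest measured probe. For a probe well above background on 1 array, the fold was taken against the higher of 2 values of the dim array. These were that array's lowest signal well above background and the probe's own signal. The fold is a lower bound where the probe's own signal was the lower of these, and otherwise the plain difference, as for Pdgfra. Genes outside the endoderm set were named through accession (22944 probes), symbol (6664) or older symbol (3108) from RefSeq (GRCm38.p6), for names alone. The software error of a difference, set by a multiplicative error of 0.1, had a median of 0.20 log2 units and leaves out variation between cultures. The number of arrays limits the precision. The scaling and the 2-fold count were tested on simulated data in which only bright probes were given a change. The filter, the lower bound and the choice of a gene's probe were not part of that test.

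The members and gene lists were chosen with earlier results of these data known. All 10 markers and every probe are given, and of each of the 15 lists the genes with the largest differences in each direction (4 for basement membrane and visceral endoderm, otherwise 2), of which those that bear on a marker are printed, and 1 gene is not reported here. Of the alternatives, 12 were planned and 2 were added after the data were seen.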

Additional observations from a re-analysis of the deposited data

How the results depend on the processing

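No paired analysis was possible because each group held a single array, and leaving out a replicate was not possible either. The number of endoderm genes at least 2-fold higher on day 6 was 1 with the filter on both arrays, since Pdgfra is then left out by construction, 3 when every probe was counted, and 2 under each of the other alternatives. The number at least 2-fold lower was 1 under each. The median log2 difference of the endoderm genes was 0.34 when every probe was counted, since Sox17 then enters by both probes, and lay between -0.15 and 0.18 under the other alternatives. Of 72 values of the 6 endoderm probes measured on both arrays under alternatives, 65 moved by less than their software error and 7 by more. The Gata4 log2 difference, which has no error, lay between 0.26 and 0.94, and its lower bound was 0.24. That of Pdgfra lay between 1.38 and 2.32. Of the endoderm probes at least 2-fold apart, 0 changed sign under an alternative. Gata6 and Dab2, both within 2-fold, changed sign without scaling, at 0.092 and 0.18. The second Sox17 probe came under 2-fold with no background subtraction, at 0.92, and the cause was not tested. The median over all genes was -0.21 with median scaling and 0.13 with no scaling. Of 210 list medians under alternatives, 55 moved by more than the median software error and 0 of those at least 2-fold apart changed sign. The definitive endoderm median ranged from -1.72 to 0.78 and so has no settled direction, and the gut, liver and pancreas median reached 1.49 when every probe was counted. Of 51 named list genes at least 2-fold apart, 6 came under 2-fold in at least 1 alternative, namely Cer1, Col4a2, Fgfr2, Myo6, Rab11fip2 and Tbx20. Signal over background limits the markers, since 13 of 21 probes were not measured on either array.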

Other observations

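Genes of the definitive endoderm and its organs differed strongly in both directions. Of 11 measured definitive endoderm genes, 4 stood 2-fold or more higher on day 6 and 5 stood lower. The chemokine receptor gene Cxcr4 was 22.1-fold higher, with 4894 units on day 6 and 190 on day 0. Sox21 was 15.7-fold higher by its brightest probe, with a log2 difference of 0.23 by another. Trh was 17.2-fold lower and the E-cadherin gene Cdh1 13.4-fold lower, and Mixl1 was not measured in either sample. Several of these genes are also expressed in neural tissue or in ES cells.

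Of 9 measured genes of gut, liver and pancreas, 3 stood 2-fold or more higher on day 6 and 4 stood lower. Prox1, which also acts in neural progenitors, was at least 32.8-fold higher, and Onecut1 was 21.3-fold higher. Cdx2, a gene of trophoblast and hindgut, was at least 47.9-fold lower, and Tbx3 was 7.64-fold lower. The pancreas gene Pdx1 and the liver gene Alb were not measured in either sample.

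Among the endoderm genes measured on both arrays, Sox7 had the largest difference with the 75th percentile scaling. The 5 genes nearest to its normalized log2 values on the 2 arrays were Cspg4, Hoxb7, Traf1, Tafa4 and Slc18a1, at distances of 0.055 to 0.13 log2 units. With 2 arrays, such nearness says only that these genes had like values.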
